A study of Mus musculus with 4 samples.

Results

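The genes described here are those of the liver X receptors (LXR) and of cholesterol efflux, 10 in all: the receptors Nr1h3 (LXR alpha) and Nr1h2 (LXR beta), the transporters Abca1 and Abcg1, and Mylip, Srebf1, Scd1, Scd2, Apoe and Lpcat3. They were taken from a list of names, and each was read from its probe with a single gene symbol, the brightest such probe if there were several. Of the 10 genes, 9 had such a probe, exactly 1 each, and Nr1h2 was not analysed here. The whole table held 19938 genes with such a probe, of which 12203 passed a filter on low signal (log2 6.47, the median of all values, reached on at least 1 array). All 9 measured genes passed it, Scd1 only through the Control, LPS and LPS/zVAD arrays. The cells were bone-marrow-derived macrophages from female BalbC mice, grown from marrow for 7 days with L929 conditioned medium as the source of M-CSF. They were left untreated (Control), given lipopolysaccharide, a ligand of the receptor TLR4, at 10 ng/ml (LPS), given LPS with the caspase inhibitor zVAD at 50 µM (LPS/zVAD), or given LPS, zVAD and the RIPK1 kinase inhibitor Nec-1 at 30 µM (LPS/zVAD/Nec-1). The design asked which inflammatory changes need the kinase activity of RIPK1. Each condition had 1 Affymetrix array, so there is no spread between replicates, no test was possible, and a gene is counted as higher or lower where 2 single arrays lay at least 2-fold apart. No condition held zVAD or Nec-1 without LPS, or Nec-1 without zVAD, so what either inhibitor does by itself cannot be told apart.

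LXR alpha and beta are nuclear receptors that bind oxysterols and, paired with a retinoid X receptor, switch on genes that rid a cell of cholesterol. ABCA1 passes cholesterol to lipid-poor apolipoprotein A-I and ABCG1 passes it to high-density lipoprotein, while MYLIP (also called IDOL) is a ubiquitin ligase that sends the low-density lipoprotein receptor to degradation. LXR also raises SREBP-1c, made from Srebf1, which drives fatty acid synthesis, and the desaturase and acyltransferase genes Scd1, Scd2 and Lpcat3, whose products make membrane lipids less saturated. In macrophages LXR is known for this handling of lipid from engulfed cells and for restraint of inflammatory genes, and signals from Toll-like receptors are known to interfere with it. LPS with a caspase inhibitor is a standard way to bring macrophages to necroptosis, a lytic death that uses the kinase RIPK1.

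Promoter sequence is shown for 4 genes: Abca1 and Srebf1, since they held a match to an LXR-type motif and yet had different array patterns, and Nr1h3 and Mylip, since they had like patterns. Windows of 300 bases around the start site came from RefSeq (build GRCm38.p6), which gave 12 windows for 7 of the 10 genes. Abcg1, Scd1 and Scd2 had no entry. LXR sites are direct repeats with 4 bases between the repeated parts. The strict form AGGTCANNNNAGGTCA was in 0 of the 12 windows and in 0.0152% of all 32851 windows. A relaxed form, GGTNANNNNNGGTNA, which has the same spacing and overlaps every strict match, was in 2 of the 12 windows and in 0.718% of all windows. The sterol regulatory element, searched as TCACNCCAC, was in 0 of the 12 and in 1.24% of all. All were searched on both strands. A match is a description of letters and not of a bound site. The 250 bases before the start site are printed from 5′ to 3′ along the gene, with matches to the relaxed repeat in capitals, both of which lie on the opposite strand. The match in Abca1 lay at positions -67 to -53 from the start site and that in Srebf1 at -182 to -168, in 1 of its 3 windows. Nr1h3 had 2 overlapping windows, of which 1 is printed.
Abca1, chr4:53159896-53160145, minus strand: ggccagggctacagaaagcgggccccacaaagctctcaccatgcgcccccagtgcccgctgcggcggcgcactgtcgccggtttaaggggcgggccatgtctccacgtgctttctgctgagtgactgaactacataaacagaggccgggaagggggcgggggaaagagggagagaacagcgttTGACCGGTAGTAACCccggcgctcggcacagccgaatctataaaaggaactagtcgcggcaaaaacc
Srebf1, chr11:60210472-60210721, minus strand: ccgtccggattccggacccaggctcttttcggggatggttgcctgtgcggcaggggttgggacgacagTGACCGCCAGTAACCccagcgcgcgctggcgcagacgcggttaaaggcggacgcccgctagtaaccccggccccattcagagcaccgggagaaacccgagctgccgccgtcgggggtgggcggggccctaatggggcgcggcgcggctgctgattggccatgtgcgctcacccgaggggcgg
Nr1h3, chr2:91195117-91195366, minus strand: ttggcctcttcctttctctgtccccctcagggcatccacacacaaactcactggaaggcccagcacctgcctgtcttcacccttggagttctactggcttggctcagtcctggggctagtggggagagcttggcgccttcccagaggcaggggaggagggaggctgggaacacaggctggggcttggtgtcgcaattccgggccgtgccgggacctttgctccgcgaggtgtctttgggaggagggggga
Mylip, chr13:45389492-45389741, plus strand: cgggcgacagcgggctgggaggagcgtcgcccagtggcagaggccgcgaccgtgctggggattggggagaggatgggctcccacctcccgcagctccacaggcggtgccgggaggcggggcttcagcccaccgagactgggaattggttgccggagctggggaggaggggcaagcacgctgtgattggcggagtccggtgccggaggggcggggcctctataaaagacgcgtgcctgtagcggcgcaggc

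The 35556 probes had median log2 signals between 6.41 and 6.52 on the 4 arrays. Of 8 macrophage markers, 7 were at or above the filter level in Control and all 8 on the other arrays, with a list mean between 11.72 and 12.13. The defining T and NK cell markers were near background (0 or 1 of 6 at the filter level), and so were the erythroid markers (0 or 1 of 3). Of the neutrophil markers, 7 of 8 stood at or above the filter level on every array, with a list mean of 7.90 in Control, 8.59 with LPS alone and 8.22 on each array with zVAD, and Cxcr2 was the exception, at 4.59 to 4.93. Of the others, 2 or 3 of 6 dendritic cell markers, 1 of 4 B cell markers and 4 or 5 of 6 stromal markers reached that level. The part of such cells in the values below was not tested. In these bulk samples, fewer cells of a type and less RNA per cell cannot be told apart.

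Nr1h3, the gene of the receptor LXR alpha, was higher with LPS, back near its Control level with zVAD, and higher again with Nec-1. Its log2 signal was 7.64 in Control and 9.26 after LPS, then 7.74 when zVAD was added and 8.85 when Nec-1 was added as well. LPS was thus 3.08-fold above Control, LPS/zVAD 2.88-fold below LPS, and LPS/zVAD/Nec-1 2.16-fold above LPS/zVAD. The LPS/zVAD and Control arrays differed by 1.07-fold. With Nec-1 the signal had regained 72.9% of the log2 difference between LPS/zVAD and LPS. The step down with zVAD was the 92nd largest of 12203 genes, and the step up with Nec-1 the 85th largest.

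Abcg1, which exports cholesterol to high-density lipoprotein, had the same order of arrays as Nr1h3 apart from Control and LPS/zVAD. Its log2 signal was 10.37 in Control and 11.41 after LPS, 10.19 when zVAD was added and 11.15 with all 3 agents. It was 2.06-fold higher with LPS than in Control (a log2 ratio of 1.04, and 0.96 after quantile normalization, just under the threshold), 2.33-fold lower with zVAD than with LPS, and 1.95-fold higher with Nec-1 than without it. Nec-1 thus came just short of 2-fold and returned 78.9% of the log2 difference. Mylip, the ligase acting on the low-density lipoprotein receptor, gave 9.56, 10.42, 8.86 and 9.96 in the same order of arrays. It was 1.81-fold higher with LPS than in Control, 2.95-fold lower with zVAD than with LPS, and 2.13-fold higher with Nec-1 than without it, a return of 70.1%. For all 3 genes the LPS array was highest, and LPS/zVAD/Nec-1 second.

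Abca1, which starts the export of cholesterol to apolipoprotein A-I, parted from this group at the last step. Its log2 signal was 9.82 in Control and 10.03 after LPS, but 7.93 once zVAD was added and 7.92 with all 3 agents. The arrays without zVAD were high and those with zVAD were low, whether or not Nec-1 was present. LPS and Control differed by 1.15-fold. Adding zVAD put Abca1 4.30-fold below LPS, the 24th largest step down of 12203 genes, and 4.33-fold lower with LPS/zVAD/Nec-1 than with LPS, the 3rd largest. LPS/zVAD/Nec-1 and LPS/zVAD differed by 1.01-fold. Under the 3 other scalings of the arrays the log2 ratio of LPS/zVAD/Nec-1 to LPS lay between -2.19 and -2.00, and its place among all genes was 3rd or 4th.

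**Figure D1:**
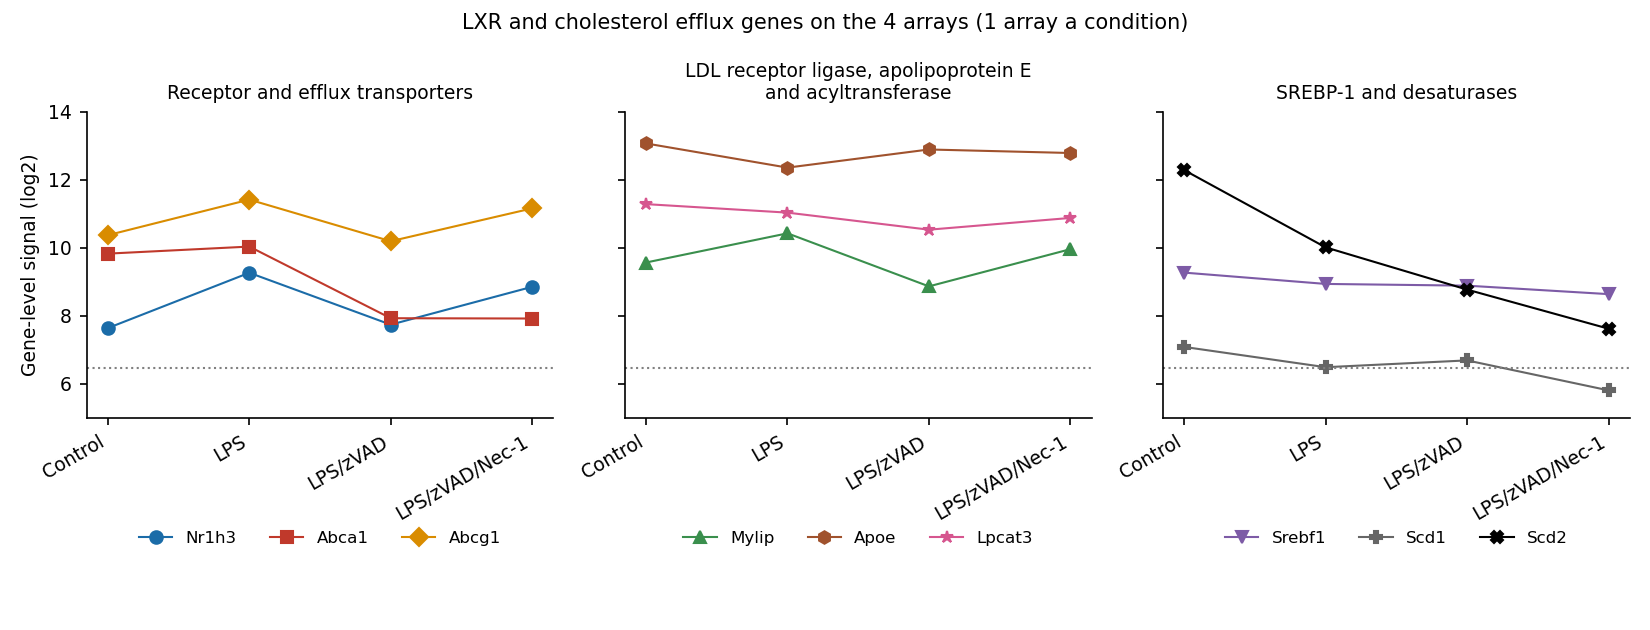
Gene-level log2 signal (vertical axis) of the 9 measured genes on the 4 arrays (horizontal axis), in panels by role; each point is 1 array, lines only join the points of a gene, there are no error bars because each condition had 1 array, and the dotted line is the filter level of 6.47. Nr1h3, Abcg1 and Mylip dip at LPS/zVAD and return with Nec-1, Abca1 stays near 7.9 on both arrays with zVAD, and Scd2 descends from 12.28 to 7.62.

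Scd2, a stearoyl-CoA desaturase that puts the first double bond into saturated fatty acids, was lower at every step. Its log2 signal was 12.28 in Control, 10.01 after LPS, 8.77 once zVAD was added and 7.62 with Nec-1 on top. LPS brought it 4.82-fold below Control, zVAD a further 2.36-fold down, and Nec-1 a further 2.22-fold. From Control to LPS/zVAD/Nec-1 it was 25.2-fold lower, the largest step down of all 12203 genes in that comparison, as deposited and under the 3 other scalings. It was the single gene of the 12203 at least 2-fold lower at each of these 3 steps, also under the 3 scalings, a pattern that was chosen after its values were seen. Against LPS alone, LPS/zVAD/Nec-1 was 5.24-fold lower, the second largest step down after Serpinb2, a serine protease inhibitor gene (log2 9.55 with LPS and 7.16 with LPS/zVAD/Nec-1). Nec-1 therefore accompanied a lower and not a higher Scd2 signal.

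Scd1, the related desaturase, was dim. Its log2 signal was 7.08 in Control, 6.49 after LPS, 6.69 after LPS and zVAD and 5.81 after all 3 agents, the last under the filter level. Counted from that level, LPS/zVAD/Nec-1 was at least 1.53-fold lower than Control, at least 1.16-fold lower than LPS/zVAD and at least 1.01-fold lower than LPS. As deposited, the log2 ratio to Control was -1.28, and LPS was 1.51-fold below Control. The 2 further stearoyl-CoA desaturase genes measured, Scd3 and Scd4, lay under the filter level on all 4 arrays, between 5.03 and 5.52, and how far probes of these related genes read each other's RNA is not given in the sources used here.

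Srebf1, which encodes SREBP-1, gave 9.27 (log2) in untreated cells, 8.93 after LPS, 8.88 after LPS and zVAD and 8.63 with Nec-1 added. The order of arrays was that of Scd2, but the whole span was 0.63. LPS and LPS/zVAD differed by 0.05, with a sign that turned under 2 of the 3 other scalings. The probe gives 1 value for the gene, so the SREBP-1a and SREBP-1c transcripts were not separated.

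Apoe, the apolipoprotein that macrophages secrete with the cholesterol they export, was bright on all arrays. Its log2 signal was 13.06 in Control, 12.35 after LPS, 12.88 after LPS and zVAD and 12.78 after all 3 agents. LPS was 1.64-fold below Control, LPS/zVAD 1.45-fold above LPS, and Nec-1 brought it 1.07-fold down. Each of these 3 steps was opposite in sign to that of Nr1h3, Abcg1 and Mylip, and each was under 2-fold. Lpcat3, which places polyunsaturated chains into phospholipids, had log2 signals of 11.28, 11.03, 10.53 and 10.87 in the same order of arrays. It was 1.42-fold lower with zVAD than with LPS and 1.27-fold higher with Nec-1 than without it, the direction of Nr1h3, Abcg1 and Mylip at under 2-fold.

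Counted over the 9 measured genes, the members followed each comparison differently. With LPS against Control, 2 were higher (Nr1h3 and Abcg1) and 1 lower (Scd2), when 15.4% of all 12203 genes were 2-fold apart (8.24% higher and 7.2% lower). The median log2 ratio was -0.25 for the members, -0.12 for the 12203 genes past the filter and -0.10 for all 19938 genes. That last median was 0.01 with each array centred on its own median. With LPS/zVAD against LPS, 5 of 9 were lower (Nr1h3, Abca1, Abcg1, Mylip and Scd2) and 0 higher, when 6.83% of all genes were 2-fold apart (3.59% lower and 3.25% higher). The medians, in the same order of gene sets, were -1.22, -0.05 and 0.03. The balance of all genes moved with the scaling (47.5% of calls in the higher direction as deposited, 42.1% with centred arrays, 57.8% after quantile normalization and 59.7% after cyclic loess), but the same 5 members were lower in each case. With LPS/zVAD/Nec-1 against LPS/zVAD, 2 were higher (Nr1h3 and Mylip) and 1 lower (Scd2), when 4.46% of genes were 2-fold apart (1.14% higher and 3.32% lower). The medians, in that order again, were -0.01, 0.07 and 0.05.

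**Figure D2:**
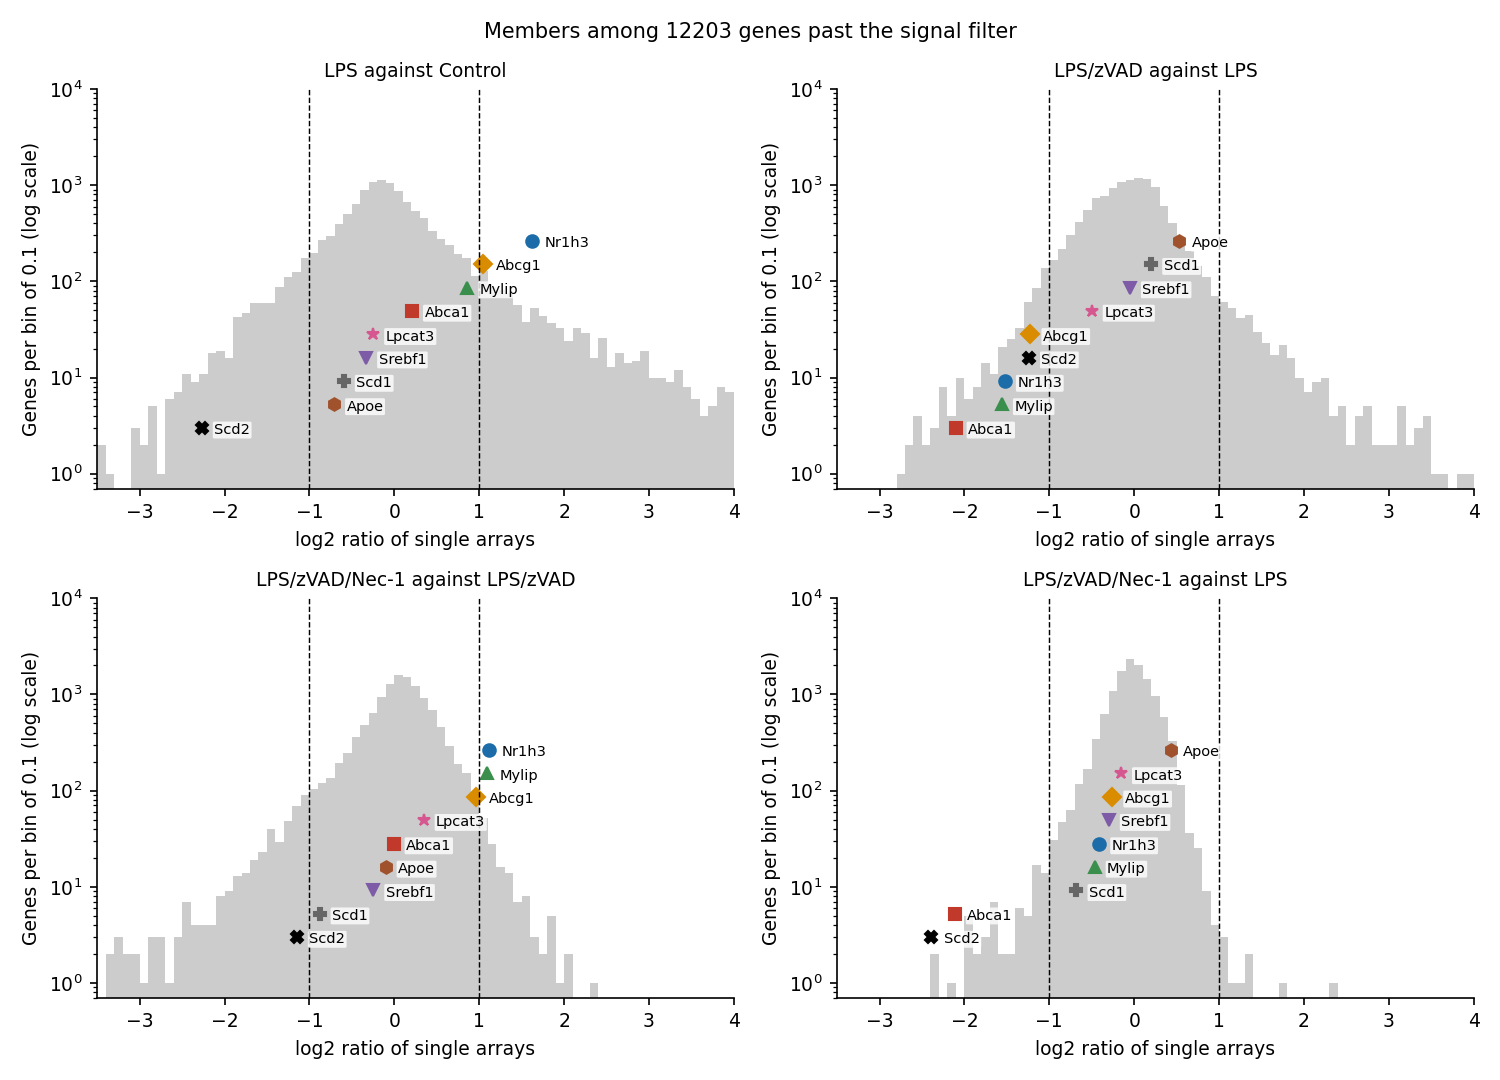
Histograms (grey, number of genes per bin of 0.1 on a log axis) of the log2 ratio between single arrays for the 12203 genes past the filter in 4 comparisons, with the 9 measured genes marked at their own ratio; their height is only a stacking order, the dashed lines are 2-fold, and ratios beyond -3.5 and 4 are outside the axis. With LPS/zVAD against LPS, Abca1, Mylip, Nr1h3, Scd2 and Abcg1 lie left of the lower line, and with LPS/zVAD/Nec-1 against LPS Scd2 and Abca1 lie in the far left tail.

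The arrays with LPS and both inhibitors and with LPS alone were close over all genes, with 0.615% of them 2-fold apart (0.541% lower and 0.0738% higher). Of the 9 members, 2 were lower, Scd2 and Abca1, and 0 were higher. Of the 5 members lower with zVAD than with LPS, 3 came to lie with Nec-1 on the LPS side of the midpoint of those 2 arrays (Nr1h3, Abcg1 and Mylip) and 2 did not (Abca1 and Scd2). Over all 438 genes lower with zVAD, 326 (74.4%) lay on the LPS side and 112 (25.6%) did not. A stricter pattern, chosen after the values were seen, was a signal at or below that of LPS/zVAD with Nec-1 present. It held for 11 of the 438 genes, namely Abca1, Scd2, Serpinb2, Alpk2, Ccr3, Cxcl3, Gm5150, Il1rl2, Mmp8, Orai2 and Ppbp. Their number was 15 with centred arrays, 9 after quantile normalization and 11 after cyclic loess, and Abca1 and Scd2 were among them each time. These comparisons share the LPS and LPS/zVAD arrays, so an error in either of those arrays would enter both.

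**Figure D3:**
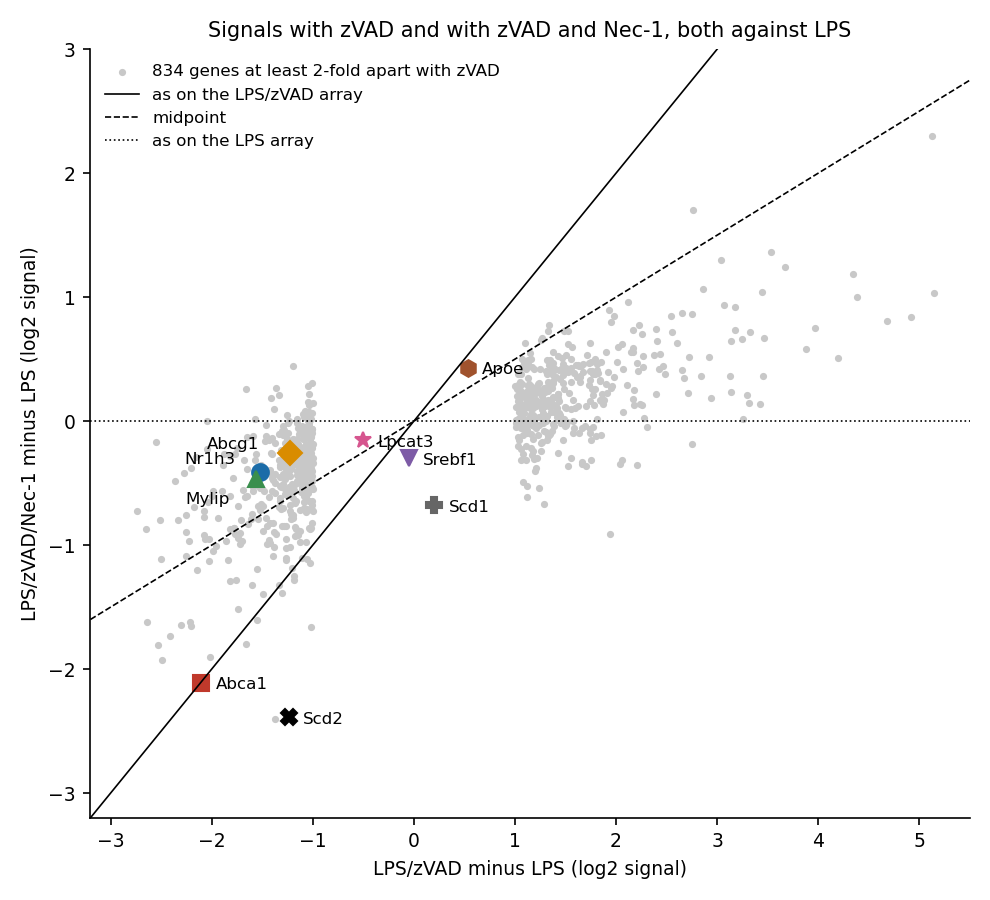
Log2 signal of LPS/zVAD minus LPS (horizontal axis) against LPS/zVAD/Nec-1 minus LPS (vertical axis) for the 9 measured genes and, in grey, the 834 genes at least 2-fold apart with zVAD; the lines mark the LPS/zVAD level (solid), the midpoint (dashed) and the LPS level (dotted), and both axes share the LPS array. Abcg1, Nr1h3 and Mylip lie between the midpoint and the LPS level, Abca1 lies on the solid line, and Scd2 lies below it.

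Set against untreated cells, LPS/zVAD had 2 of 9 members lower, Abca1 (3.73-fold) and Scd2 (11.4-fold), and 0 higher, when 19.5% of all genes were 2-fold apart (10.7% lower and 8.79% higher). The higher ones made up 45.1% of these calls, and 58.7% after cyclic loess normalization. LPS/zVAD/Nec-1 had 1 member higher, Nr1h3 (2.32-fold), and 3 lower as deposited, Abca1 (3.75-fold), Scd2 (25.2-fold) and Scd1, which was 1.53-fold when counted from the filter level. Among all genes 14.5% were 2-fold apart (6.85% higher and 7.68% lower), and the higher ones made up 47.2% of these calls as deposited, or 57.1% after cyclic loess normalization. With both inhibitors the receptor gene thus stood above its untreated level while Abca1 stood below it.

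Other genes of the pathway were followed in 10 lists with 129 different genes, of which 113 were measured and 94 passed the filter. Of the 12 measured partners and coregulators of LXR, 11 passed the filter. The calls were 0 with LPS, 1 higher with zVAD (the coactivator gene Ncoa3, log2 10.86 and 11.88), and 0 with Nec-1 against LPS/zVAD. Rxra, the main partner of LXR, had log2 signals of 8.45 in Control, 7.73 after LPS, 7.41 after LPS and zVAD and 7.87 with Nec-1 added. LPS/zVAD was 2.06-fold below Control, the single call of the list in that comparison. Of 9 measured genes of oxysterol metabolism, which make and clear LXR ligands, 7 passed the filter and 0 were 2-fold apart in any of these 3 comparisons (LPS, zVAD and Nec-1 steps). Among all 12203 genes 15.4%, 6.83% and 4.46% were 2-fold apart at those steps. In lists this small, counts of 0 or 1 lie near those shares. Ch25h, which makes an oxysterol from cholesterol, stood at 11.25 in Control and between 11.84 and 12.03 on the arrays with LPS.

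Of 17 further measured LXR target genes, 2 were higher with LPS, Arg2, an arginase gene (log2 7.52 and 11.17), and Pltp, the phospholipid transfer protein gene (10.31 and 11.34), and 5 were lower. The latter were the lipogenic genes Fasn (10.08 and 7.71), Fads1 (11.76 and 9.95), Mid1ip1 (10.83 and 9.14), Fads2 (10.24 and 8.86) and Elovl5. Among all 12203 genes 8.24% were higher with LPS and 7.2% lower. Of the 17, 14 passed the filter. With zVAD 1 was higher, Mid1ip1, which helps activate acetyl-CoA carboxylase (9.14 and 10.30), and 0 were lower, when 3.59% of all genes were lower and 5 of the 9 members were. The median log2 ratio of the 17 with zVAD was 0.16, genes under the filter included, against -1.22 for the members. It was 0.03 for all 19938 genes and -0.05 for the 12203 past the filter. With Nec-1 against LPS/zVAD, 3 of the 17 were lower (Arg2, Fads2 and Mid1ip1) and 0 higher, when 3.32% of all genes were lower and 1.14% higher.

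Of 14 measured genes of fatty acid synthesis, elongation and desaturation, of which 10 passed the filter, 5 were lower with LPS and 0 higher (median log2 ratio -0.44), namely the elongase gene Elovl6 (9.76 and 6.91) and Fasn, Fads1, Fads2 and Elovl5, which the list of LXR targets also holds. Among all 12203 genes 7.2% were lower with LPS and 8.24% higher, with a median log2 ratio of -0.12 (-0.10 over all 19938 genes). With zVAD 0 of the 10 list genes past the filter were 2-fold apart, when 6.83% of all genes were. With Nec-1 against LPS/zVAD Fads2 was lower (9.46 and 8.25), when 4.46% of all genes were 2-fold apart. Of 17 measured cholesterol synthesis genes, all past the filter, 5 were lower with LPS (Sqle, Dhcr7, Cyp51, Lss and Hsd17b7, median -0.50) and 0 were 2-fold apart with zVAD or with Nec-1. In lists this small, counts of 0 or 1 lie near those shares. Of these 2 lists, Fads2 with Nec-1 was the single gene 2-fold lower at either of the further steps of Scd2.

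The genes that hold SREBP back in the endoplasmic reticulum went the opposite way to the efflux genes with zVAD. Insig1 had log2 signals of 11.57 in Control, 10.42 after LPS, 12.64 after LPS and zVAD and 11.19 with Nec-1 added, and Insig2 had 9.92, 10.13, 11.69 and 10.56. Both were highest with LPS/zVAD. They were 4.68-fold and 2.93-fold higher with zVAD than with LPS, and 2.73-fold and 2.18-fold lower once Nec-1 was added. Among all 12203 genes 3.25% were higher with zVAD than with LPS, and 3.32% were lower with Nec-1 than without it. Of the 396 genes higher with zVAD, 390 (98.5%) lay with Nec-1 on the LPS side of the midpoint, so such a return was general. The other 3 measured genes of SREBP control, Srebf2, Scap and Mbtps1, were within 2-fold in both comparisons.

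Lpcat3 belongs to the lysophospholipid acyltransferases. Of 12 measured genes of this kind, 11 passed the filter. Among all 12203 genes 3.59% were lower with zVAD than with LPS, and 1.14% were higher with Nec-1 than without it. In this list 3 were lower with zVAD and the same 3 were higher with Nec-1: Lpcat1 (log2 10.23 after LPS, 8.63 with zVAD added and 9.69 with Nec-1 as well), Lpcat2 (11.77, 10.50 and 11.53) and Agpat3 (10.68, 9.53 and 10.67). They differed from Nr1h3 at the LPS step, where they were within 2-fold of Control. Of 14 measured further lipid transporters of the ABC family, which held 7 genes past the filter, Abca7, a relative of Abca1, was the single one lower with zVAD (8.80 and 7.76), and it stood at 8.16 with LPS/zVAD/Nec-1. Its log2 ratio with zVAD was -1.04, just past the threshold. In a list this small a count of 1 lies near the share of 3.59%. With LPS against Control, Abcd2 (9.44 and 7.34) and Abcb4 were lower, when 7.2% of all genes were.

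Of the LPS, zVAD and Nec-1 steps, uptake and storage genes had most of their calls with LPS, and so did all genes. With LPS 15.4% of all 12203 genes were 2-fold apart (8.24% higher and 7.2% lower). Of 7 measured uptake genes, Olr1, the receptor LOX-1 for oxidised lipoprotein, was at least 20.5-fold higher with LPS when counted from the filter level (log2 6.13 and 10.83), and Lrp8, itself a target of the MYLIP ligase (9.65 and 7.82), Lrp1 (12.23 and 11.08) and Scarb1 (10.31 and 9.29) were lower. The scavenger receptor genes Cd36 and Msr1 stayed within 13.04 to 13.52 on all arrays. Of 12 measured genes of sterol storage and trafficking, 2 were higher with LPS (Gramd1a and Stard3) and 3 lower (Stard4, Gramd1b and Nceh1), and the sterol carrier gene Stard4 was at 9.45 in Control and 7.29 with LPS. In these 2 lists 0 genes were 2-fold apart with zVAD, when 6.83% of all genes were. With Nec-1 against LPS/zVAD Gramd1b, an endoplasmic reticulum sterol transporter gene, was lower (9.69 and 8.52), when 3.32% of all genes were.

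**Figure D4:**
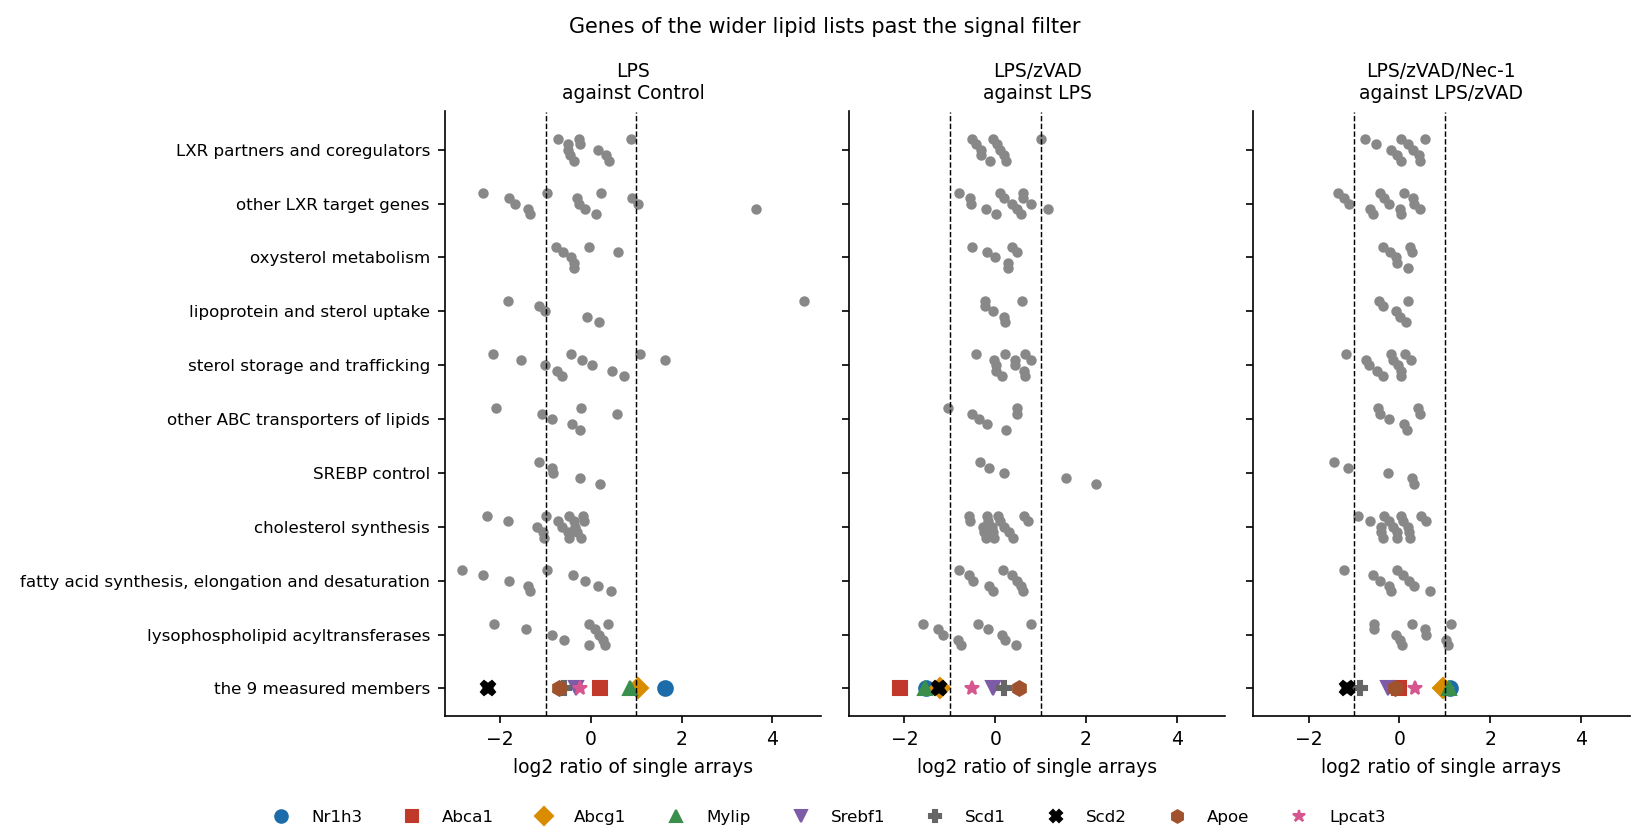
Log2 ratio between single arrays (horizontal axis) of the genes past the filter in 10 lists of the wider lipid pathway (grey points, 1 gene each) and of the 9 measured members (coloured, bottom row) in 3 comparisons; small vertical offsets only separate points, and dashed lines are 2-fold. With zVAD the lowest acyltransferases, Lpcat1, Lpcat2 and Agpat3, lie left of the lower line and Insig1 and Insig2 lie right of the upper line.

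Likeness to other genes was measured as the root mean square distance of log2 signals over the 4 arrays, each gene centred on its own mean, among 11534 genes. The nearest to Nr1h3 were the cytokine receptor gene Il21r (distance 0.07), Mocs1 and Gas7, and the nearest to Abcg1 were the fatty acid receptor gene Gpr84 (0.02), the lysosomal phosphatase gene Acp2 (0.03) and Fam3b. Fam3b passed the filter only through the LPS array (log2 6.83), and its signals on the other arrays were not separated from background. Mylip was nearest to Rin3, Arrdc3 and Fyb, at 0.09 to 0.10. Among the members, Mylip and Abcg1 were 0.20 apart, which put Abcg1 41st in nearness to Mylip, and Nr1h3 and Abcg1 were 0.21 apart, which put Abcg1 51st in nearness to Nr1h3. Scd1 was nearest to Trps1, Crybg3 and Il6st, at 0.07 to 0.10, distances that rest in part on its LPS/zVAD/Nec-1 signal (5.81), which was under the filter level. Abca1 and Scd2 had no neighbours that close, but the distance is not scaled to the size of a gene's differences. Their log2 signals spanned 2.11 and 4.66, against 1.22 for Abcg1, 1.28 for Scd1, 1.56 for Mylip and 1.62 for Nr1h3. The nearest to Abca1 were the oxygen sensor gene Egln1 (0.40), Tgfbi (0.44) and Egln3 (0.45), and the nearest to Scd2 were Rab3il1 (0.74), Dctd (0.78) and Cdc42ep3 (0.80). With 4 arrays these distances describe the table and carry no test.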

How the data were processed

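RNA of 4 conditions was hybridised to Affymetrix arrays, 1 for each, from 250 ng of total RNA (per the labels). According to the submitters' processing notes, the authors used Affymetrix Expression Console, which gave 1 signal per gene-level probe. The range of the deposited values is that of a log2 scale. The sources used here state neither the software's version, nor its background correction and normalization, nor treatment times, and an unstated normalization could shift small ratios. Titles gave the groups. Precision is limited by the number of arrays. Of 35556 probes, 21789 had 1 gene symbol in the platform annotation. Ratios are differences of log2 signals, counted at 2-fold or more among genes past the filter. A fold against a signal under the filter level is counted from that level and given as a bound. List medians cover all measured members. Members and lists were chosen with earlier results of these data known, and a list's direction is no independent support. Named were all members, up to 4 genes per list and comparison by size of ratio, the 3 nearest genes of each member whose log2 signals spanned 1 or more, and further genes, chosen after their values were seen, to complete a count or show list members within 2-fold. Alternatives were 3 scalings (centring, and quantile and cyclic loess normalization in limma 3.58.1, R 4.3.3), thresholds of 1.5-fold and 3-fold, no filter, a filter at the 75th percentile (log2 8.72) and the mean of a gene's probes. The code that makes the calls was checked on simulated signals with known differences larger than the threshold. That check tells nothing about the error of single arrays. Protein sequences were not used here.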

Additional observations from a re-analysis of the deposited data

How the results depend on the processing

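The 9 members gave 54 log2 ratios over 6 comparisons, of which 19 were past 2-fold as deposited. Among them, Scd1 with LPS/zVAD/Nec-1 against Control, has a lower bound of 1.53-fold. All 19 kept their sign under centring, quantile and cyclic loess normalization, and 18 stayed past 2-fold. The exception was Abcg1 with LPS against Control after quantile normalization (0.96). The sign of Srebf1 between LPS/zVAD and LPS turned, over a range of -0.10 to 0.07. Averaging a gene's probes or dropping the filter could not change a member's ratio, since each has 1 probe and passed the filter, and the filter at the 75th percentile left out Scd1. The count of 3 members on the LPS side of the midpoint held under the 3 scalings. The threshold set the counts most, through its own construction. At 1.5-fold, 6 members were called with LPS against Control (3 at 2-fold), 5 with LPS/zVAD/Nec-1 against LPS/zVAD (3 at 2-fold), among them Scd1, whose lower bound is 1.16-fold, and 4 with LPS/zVAD against Control (2 at 2-fold). At 3-fold, 1 remained with LPS/zVAD against LPS (Abca1), 2 with LPS/zVAD/Nec-1 against Control (Abca1 and Scd2) and 0 with LPS/zVAD/Nec-1 against LPS/zVAD. Of the pathway genes in lists, 27, 8, 9, 1, 23 and 26 were called at 2-fold with LPS against Control, LPS/zVAD against LPS, LPS/zVAD/Nec-1 against LPS/zVAD, LPS/zVAD/Nec-1 against LPS, LPS/zVAD against Control and LPS/zVAD/Nec-1 against Control. In that order they numbered 45, 22, 18, 5, 46 and 43 at 1.5-fold, and 13, 2, 0, 0, 11 and 14 at 3-fold. No paired analysis was possible because each condition had 1 array. Signals under the filter level, here Scd1 with Nec-1, were not separated from background.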
